A study of Mus musculus with 13 samples.

Results

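The comparison set mice that had both experimental hits, extra Setd7 in the ventral tegmental area (VTA) and adult social defeat, against mice that had neither. It used 5 of the 13 libraries of the series: 2 libraries from Setd7 virus with defeat, called Setd7 defeat, and 3 from green fluorescent protein (GFP) virus without defeat, called GFP control. A gene entered the comparison when it reached 10 normalized counts in at least 2 of the 13 libraries, which 17755 of 26264 genes did. All mice carried the strain label C57BlJ/6 and received a virus in the VTA on postnatal day 14, so the controls had the injection and a virus too. GFP control replicate 1 is female and replicates 2 and 3 are male, while Setd7 defeat replicate 1 is female and replicate 2 is male. The tissue was a punch of VTA taken in adulthood, from which total RNA was depleted of ribosomal RNA and sequenced. The type of virus and its promoter are not given in the sources used here, and the animals' age in days and the length of the defeat are not given there either. The labels do not say that each library is a separate animal, so p-values measure the spread between these samples. The data column of Setd7 defeat replicate 1 carries a longer number than its title, so whether that library holds 1 animal is not settled.

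Setd7 is a lysine methyltransferase that can place a single methyl group on lysine 4 of histone H3, a mark found at enhancers and promoters, and that also methylates non-histone proteins. The VTA holds dopamine neurons that project to the striatum and the cortex, next to GABA and glutamate neurons and the glia and vessels of the midbrain. In social defeat a mouse is repeatedly attacked by an aggressor, and the VTA dopamine system is known to take part in the behavioural response. The comparison asks how far the transcriptome of the VTA differs after both hits from that after neither. With 2 libraries against 3, each value below is given by library.

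Reads assigned to genes were 26.5, 50.8 and 33.4 Mreads (mega reads) in the GFP control libraries in replicate order and 35.3 and 31.2 Mreads in the Setd7 defeat libraries. Values are normalized counts, the authors' counts divided by a size factor for each library, and differences are log2(normalized count + 1) differences of Setd7 defeat minus GFP control ± standard error (SE), with a term for sex. The dopamine marker Th marked the tissue as midbrain in all 5 libraries, but unevenly. Th read 9760, 3392 and 2508 normalized counts in GFP control and 11999 and 10751 in Setd7 defeat, so GFP control replicates 2 and 3 stood low. Setd7 defeat replicate 1 stood apart in genes of the meninges, and it read above replicate 2 in the immune genes printed below. Fewer cells of a type and less RNA per cell cannot be told apart in such bulk tissue.

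Setd7 itself was far higher with both hits. Setd7 read 14538, 13481 and 13664 normalized counts in GFP control and 92288 and 123133 in Setd7 defeat. Both Setd7 defeat libraries lay above all 3 GFP control libraries, with group means of 107710 ± 21811 (SD, n = 2) and 13894 ± 565 (SD, n = 3). The ratio of means was 7.75. The log2 difference was 2.87 ± 0.48, with an adjusted p of 0.441 by limma and 0.000712 by DESeq2 on the recovered reads. The limma fit takes 1 spread for all 4 groups of the series, and Setd7 control (Setd7 virus without defeat) ranged from 28587 to 158681. Fitted on the 5 libraries alone, Setd7 passed in limma too (log2 difference 2.96, adjusted p = 0.00813), as it did without Setd7 control replicate 4 (2.92, adjusted p = 0.000357). An exact two-sided permutation test of the 5 values gave p = 0.1, the smallest these group sizes allow. Reads of the viral and the endogenous Setd7 transcript were counted together.

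**Figure D1:**
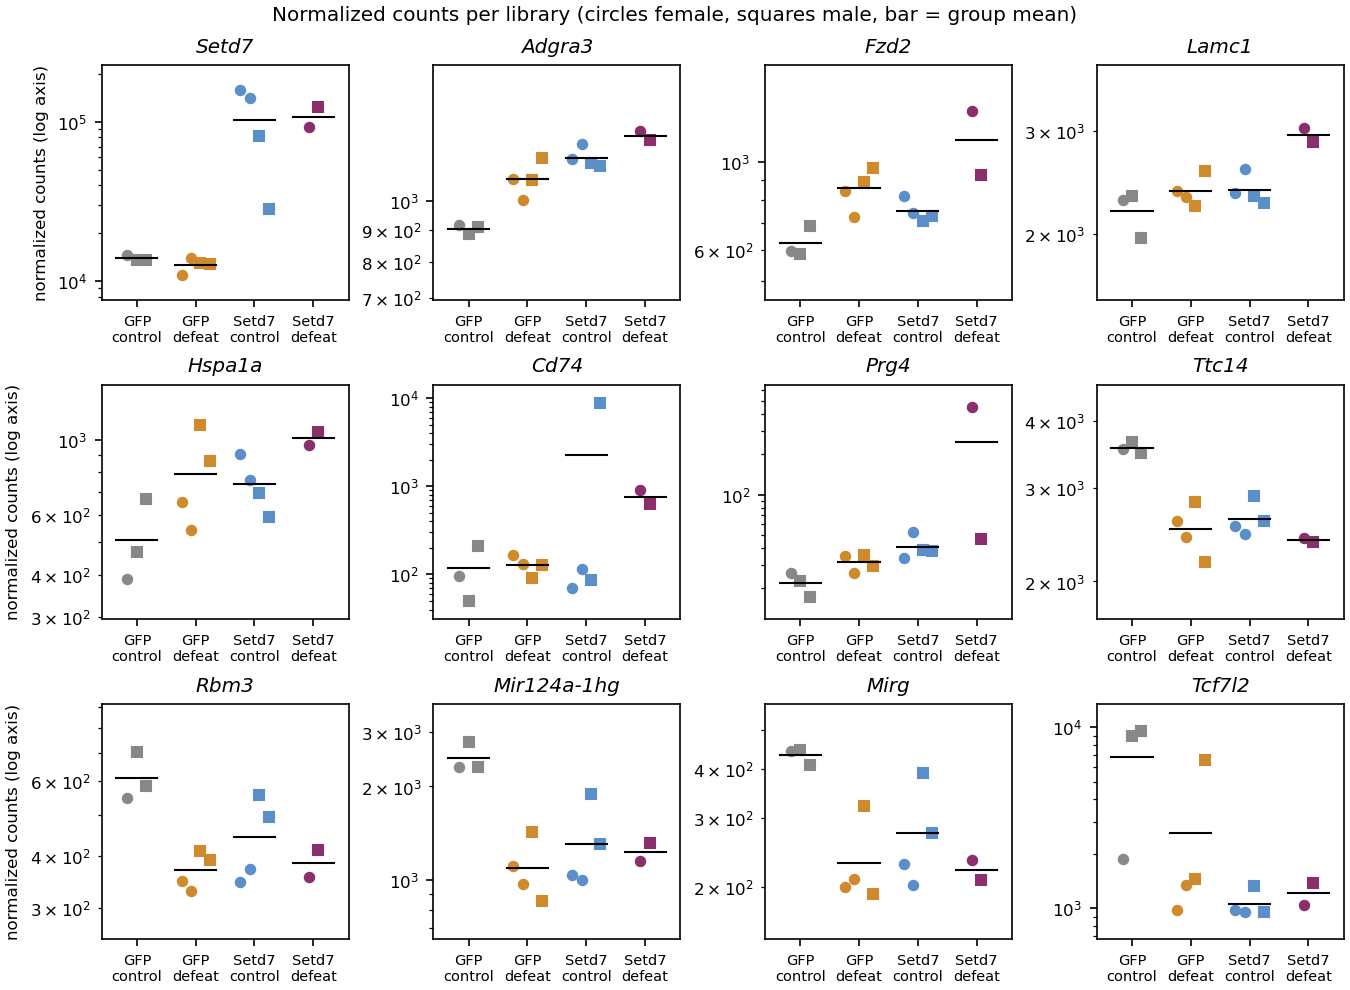
Normalized counts (log axis) of 12 genes in each of the 13 libraries, by group, with circles for female and squares for male libraries and a bar at the group mean. Both Setd7 defeat libraries lie above all 3 GFP control libraries for Setd7, Adgra3, Fzd2, Lamc1, Hspa1a, Cd74 and Prg4 and below all 3 for Ttc14, Rbm3, Mir124a-1hg, Mirg and Tcf7l2, and the Prg4 mean rests on Setd7 defeat replicate 1 at 449.

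Across all genes the comparison called none by limma: 0 of 17755 genes, or 0%, reached an adjusted p of 0.05, the smallest adjusted p being 0.441. At an unadjusted p under 0.05 limma had 718 genes higher (4.04%) and 755 lower (4.25%), 1473 in all. The quasi-likelihood test of edgeR also called 0 genes, with 1457 at an unadjusted p under 0.05. DESeq2, an alternative on the recovered reads, called 26 genes: 16 higher (0.0957% of the 16722 genes it gave an adjusted p) and 10 lower (0.0598%). In all 26 the groups did not overlap. Over all genes tested, 2007 (11.3%) had both Setd7 defeat libraries above all GFP control libraries and 1965 (11.1%) had both below. The median difference was 0.01, with 9078 genes higher and 8677 lower. These shares are the background against which the gene groups below are read. The lists were written with earlier results of these data known, so a share beside this background describes and does not test.

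The 12 genes with the smallest unadjusted p on the higher side are described singly. Adgra3, an adhesion G protein-coupled receptor, read 915, 886 and 909 normalized counts in GFP control and 1295 and 1252 in Setd7 defeat. The libraries of a group were close to each other and the groups were far apart, with a log2 difference of 0.49 ± 0.09 (adjusted p = 0.441 by limma, 0.00157 by DESeq2). Fzd2, a receptor for Wnt proteins, read 595, 585 and 690 against 1344 and 924, a difference of 0.84 ± 0.16 (adjusted p = 0.441 by limma, 0.00178 by DESeq2). The gap was wider for Setd7 defeat replicate 1, and without that library the Fzd2 difference was 0.55. Lamc1, the laminin gamma-1 chain of basement membranes, read 2291, 2322 and 1974 against 3044 and 2874 (0.42 ± 0.09, adjusted p = 0.0326 by DESeq2). Bcam, a laminin receptor, read 1056, 875 and 923 against 1797 and 1171, and without Setd7 defeat replicate 1 its difference of 0.58 ± 0.13 was 0.34. Bsg, the partner protein of lactate transporters, read 10727, 10190 and 9987 against 13334 and 12383 (0.31 ± 0.07, adjusted p = 0.00521 by DESeq2).

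The same side held Tpt1, Rpl41, Gsn, Phpt1, Fabp5 and Sox1ot. Tpt1, which encodes the translationally controlled tumour protein, read 1247, 1344 and 1407 normalized counts in GFP control and 1806 and 1809 in Setd7 defeat (log2 difference 0.45 ± 0.09). Rpl41, a protein of the large ribosomal subunit, read 1339, 1528 and 1547 against 2351 and 1931 (0.54 ± 0.11). Gsn, the actin-severing protein gelsolin made by oligodendrocytes among others, read 2320, 1938 and 2081 against 3339 and 2755 (0.51 ± 0.11). DESeq2 called all 3, with adjusted p of 0.0135, 0.0113 and 0.0293, and limma gave an adjusted p of 0.515 for each. Tpt1 and Rpl41 have processed copies in the genome, so their counts are less certain. Phpt1, a phosphohistidine phosphatase, read 640, 638 and 626 against 924 and 869, and Fabp5, a fatty acid carrier, read 652, 605 and 603 against 923 and 850. Neither Phpt1 nor Fabp5 was called by DESeq2 (adjusted p = 0.062 and 0.0551), although the groups did not overlap. Sox1ot, a non-coding transcript that overlaps Sox1, read 423, 366 and 359 against 648 and 613 (0.71 ± 0.16, adjusted p = 0.0455 by DESeq2). The strand setting of the counting is not given in the sources used here, so reads of Sox1ot and Sox1 cannot be told apart with certainty, and Sox1 itself had a difference of 0.07 ± 0.10.

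A further set on the higher side rested on Setd7 defeat replicate 1. Prg4, which encodes the lubricating proteoglycan lubricin, read 26.1, 22.8 and 17.2 normalized counts in GFP control but 449 and 46.9 in Setd7 defeat. Its log2 difference of 2.59 ± 0.61 (adjusted p = 0.000894 by DESeq2) was 1.11 without replicate 1 and 4.23 without replicate 2. Thbd, the thrombin receptor thrombomodulin, read 502, 537 and 504 against 2200 and 648, a difference of 1.15 ± 0.29 that was 0.39 without replicate 1. Serpind1, the thrombin inhibitor heparin cofactor II, read 260, 155 and 211 against 656 and 311 (1.08 ± 0.24, 0.70 without replicate 1). The transcription factor Osr1 read 9.13, 3.57 and 12.9 against 196 and 21.1, and the matrix protein gene Omd read 10.4, 5.0 and 14 against 182 and 25.8. Osr1 and Omd had too few counts for the naming rule and were added after their values were seen, as DESeq2 called both. Of the 16 genes that DESeq2 called higher, 6 read over 1.5 times as much in replicate 1 as in replicate 2, and 0 the other way round. In the whole set of 17755 genes 11.1% did so.

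The genes with the smallest p on the lower side are likewise described singly. Ttc14, a tetratricopeptide repeat protein, read 3548, 3648 and 3480 normalized counts in GFP control and 2412 and 2370 in Setd7 defeat. The 5 libraries fell into the groups without overlap and with little spread, for a log2 difference of -0.57 ± 0.10 (adjusted p = 0.441 by limma, 0.00178 by DESeq2). Rbm3, an RNA-binding protein made more in the cold, read 546, 702 and 585 against 355 and 413 (-0.61 ± 0.13, adjusted p = 0.0364 by DESeq2). Mbd6, a protein with a methyl-CpG-binding type of domain, read 944, 1162 and 1218 against 657 and 709 (-0.66 ± 0.14, adjusted p = 0.0143 by DESeq2). Kifc2, a kinesin motor of neurons, read 6962, 8595 and 9134 against 6003 and 6370 (-0.37 ± 0.08, adjusted p = 0.0455 by DESeq2).

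The Pisd pseudogenes Pisd-ps3 and Pisd-ps1, Srrm4os, Rskr and Neb stood on the same side. Pisd-ps3 read 6777, 5570 and 5227 normalized counts against 4044 and 3159 (-0.73 ± 0.13), and Pisd-ps1 read 998, 1047 and 899 against 654 and 576 (-0.68 ± 0.13). Both were called by DESeq2 (adjusted p = 0.00177 and 0.00376), and both share sequence with Pisd and with each other, so their separate counts are uncertain. Srrm4os, named for lying opposite the neuronal splicing factor gene Srrm4, read 116, 195 and 125 against 26.1 and 72.7, a difference of -1.61 ± 0.37. Without Setd7 defeat replicate 1 the Srrm4os difference was -1.0. Without a stated strand the Srrm4os row may hold reads of Srrm4, which had a difference of -0.27 ± 0.15. Rskr, a kinase gene related to the ribosomal S6 kinases, read 162, 156 and 190 against 66.2 and 61.0 (-1.37 ± 0.32, adjusted p = 0.0492 by DESeq2). Neb, the muscle thin-filament protein nebulin, read 87.4, 280 and 196 against 55.2 and 61.0 (-1.45 ± 0.37, adjusted p = 0.0492 by DESeq2). Without the 3 libraries low in Th, named below, the Neb difference was -0.72.

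Wnt9b, Epha1 and Ovgp1 completed the lower side. Wnt9b, a Wnt ligand, read 23.5, 286 and 63.6 normalized counts in GFP control and 0 in both Setd7 defeat libraries. A count of 0 allows up to 3 reads, or 3.01 and 3.52 normalized counts in the 2 libraries, so the Wnt9b mean was at least 38.1-fold lower than the GFP control mean of 124. The GFP control mean rests largely on replicate 2. The ephrin receptor Epha1 read 73.0, 106 and 64.6 against 34.1 and 24.6 (-1.40 ± 0.34), and the glycoprotein gene Ovgp1 read 115, 127 and 146 against 63.2 and 64.5 (-0.99 ± 0.24). None of the 3 was called by DESeq2, with adjusted p of 0.0767, 0.102 and 0.104.

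The groups with a single hit share the GFP control libraries with this comparison, so their values can only be set side by side. Adgra3 was 0.38 ± 0.07 above GFP control with Setd7 alone, 0.26 ± 0.07 with defeat alone and 0.49 ± 0.09 with both. Ttc14 stood at -0.44 ± 0.09, -0.51 ± 0.09 and -0.57 ± 0.10 in the same order. For Ttc14 the departure from a sum of both single differences, the interaction term, was 0.38 ± 0.13 (unadjusted p = 0.0124). Mir124a-1hg, the host transcript of a microRNA-124 gene, stood at -0.91 ± 0.18, -1.15 ± 0.18 and -0.96 ± 0.22, with an interaction of 1.11 ± 0.27 (unadjusted p = 0.00147). Sox1ot stood at -0.09 ± 0.14 with Setd7 alone, 0.55 ± 0.14 with defeat alone and 0.71 ± 0.16 with both. Lamc1 stood at 0.11 ± 0.08 and 0.10 ± 0.08 with a single hit and 0.42 ± 0.09 with both (interaction 0.21 ± 0.11, unadjusted p = 0.0904). Thbd stood at -0.04 ± 0.25 and -0.17 ± 0.25 against 1.15 ± 0.29 with both, and its interaction of 1.36 ± 0.37 (unadjusted p = 0.00286) comes with the high value of 1 library given above. The adjusted p of the interaction by limma was 0.942 or more for Adgra3, Ttc14, Sox1ot, Lamc1, Thbd and Mir124a-1hg. These genes were picked on libraries that also enter the interaction. Its unadjusted p-values (limma) are therefore no independent test of a departure from a sum.

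**Figure D2:**
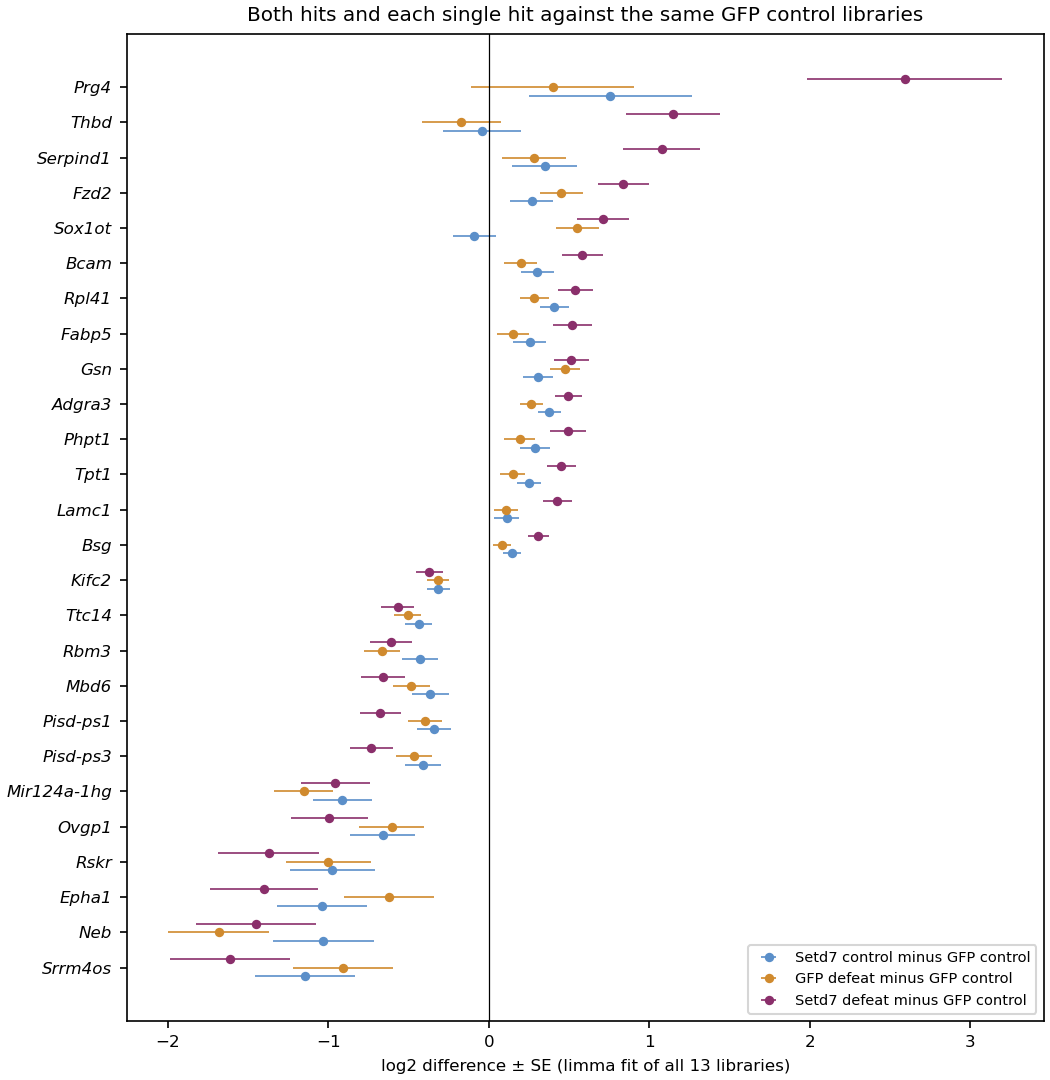
Log2 differences from GFP control (± SE, limma fit of 13 libraries) of 26 genes named by rule, for Setd7 alone, defeat alone and both. With both hits Adgra3 stands at 0.49, Fzd2 at 0.84 and Ttc14 at -0.57, while Thbd and Prg4 stand apart from the single hits with values that rest on 1 library.

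**Figure D3:**
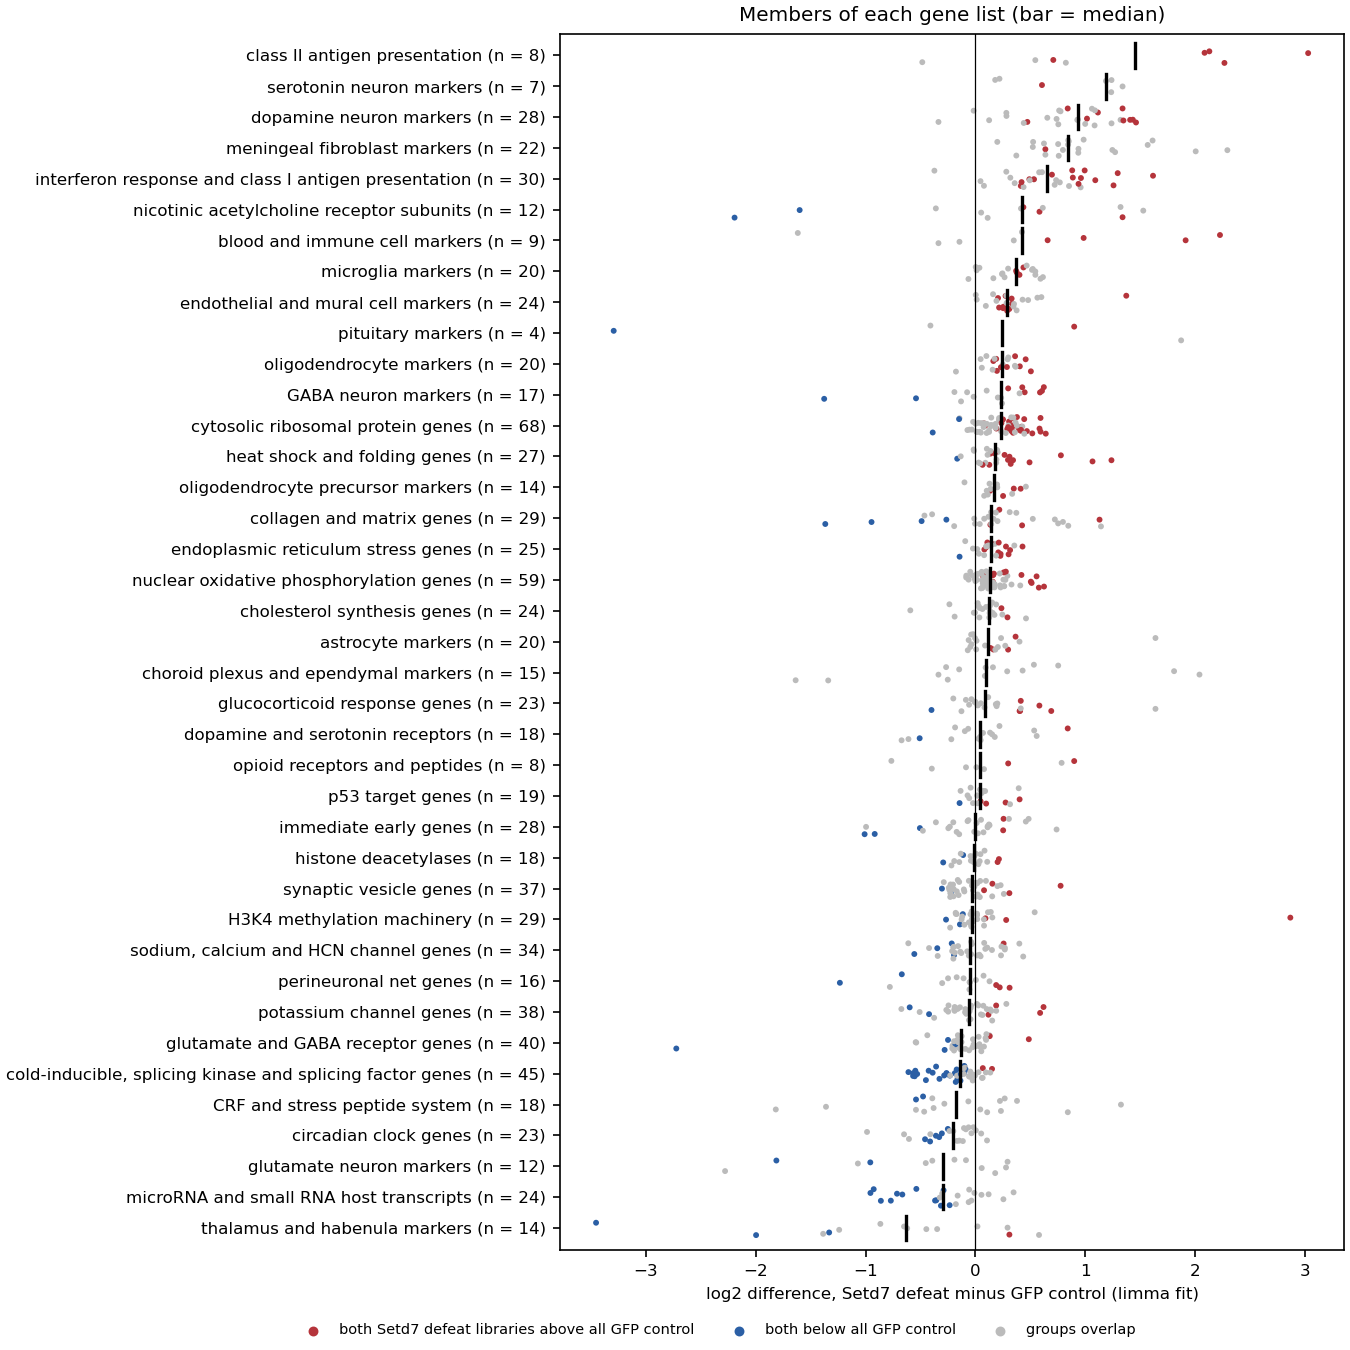
Log2 differences (Setd7 defeat minus GFP control, limma fit) of the members of 39 gene lists, with a bar at each list's median and colour for genes whose groups do not overlap. Medians run from -0.64 for thalamus and habenula markers to 1.45 for class II antigen presentation, and 25 of 39 lists have a median above 0.

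Markers of dopamine neurons were higher with both hits: 26 of 28 stood above GFP control, with a median log2 difference of 0.93 beside 0.01 over all genes, and 9 did not overlap, all of them higher. Unadjusted p was under 0.05 for 8 of 28, all higher, and limma called 0 of the 28 after adjustment. Ntsr1, the neurotensin receptor of dopamine neurons, read 2008, 1067 and 779 normalized counts in GFP control and 2600 and 2530 in Setd7 defeat (1.11 ± 0.39). Foxa1, a transcription factor that maintains these neurons, read 823, 472 and 262 against 927 and 973 (1.01 ± 0.40). Gucy2c, a guanylyl cyclase receptor found on them, read 400, 186 and 137 against 597 and 551 (1.43 ± 0.63). In each case GFP control replicate 1 lay close to the Setd7 defeat libraries and replicates 2 and 3 lay far below. The same held for the dopamine transporter gene Slc6a3, at 20103, 7565 and 4914 against 27777 and 21895. The 3 libraries low in Th were the latter pair and replicate 1 of GFP defeat (GFP virus with defeat). Leaving them out made the dopamine median 0.06, with 17 of 28 higher. Th is itself 1 of the 28 markers, so the libraries were left out by a list member and a smaller median was built in. GFP control was then 1 library, a female one, whose spread is assumed to equal that of the other groups. Without GFP control replicate 1, which left only male GFP control libraries, the dopamine median was 1.52. Set against all GFP control libraries, it was 0.93 with Setd7 alone and 0.78 with defeat alone, so the rise was not particular to both hits.

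Genes of the thalamus and habenula, which lie above the midbrain, stood the other way: 10 of 14 were lower, with a median of -0.64, and 3 were lower and 1 higher without overlap. Tcf7l2, a transcription factor of thalamic neurons, read 1869, 9009 and 9559 normalized counts in GFP control and 1047 and 1385 in Setd7 defeat (-2.0 ± 0.56). Gbx2, another thalamic factor, read 18.3, 656 and 34.5 against 9.03 and 2.35. Its high value was in GFP control replicate 2 alone. Gpr151, a receptor of habenular neurons, read 60.0, 45.0 and 36.6 against 17.1 and 19.9 (-1.33 ± 0.44). GFP control replicates 2 and 3, the pair low in Th, were high in Tcf7l2. They are also the male libraries of their group, so within GFP control sex and tissue content cannot be told apart. GFP defeat replicate 1, also low in Th, is female. The thalamic median was -0.18 without the libraries low in Th and -0.13 without GFP control replicate 2. With a single hit it was -0.40 (Setd7 alone) and -0.45 (defeat alone), set against the same GFP control libraries. The part of this uneven tissue content in the other results was not tested beyond the same alternatives.

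Other neuron lists stood closer to 0 or overlapped. Of 17 GABA neuron markers 11 were higher (median 0.23), with 6 higher and 2 lower without overlap. Slc32a1, the vesicular GABA transporter, read 7403, 5683 and 7478 normalized counts against 10313 and 8566 (0.45 ± 0.21). The tachykinin receptor Tacr1 was lower, at 492, 579 and 737 against 330 and 485 (-0.54 ± 0.21). Of 12 glutamate neuron markers 8 were lower (median -0.29), with Camk2a, a kinase of forebrain excitatory neurons, at 5888, 15869 and 10889 against 4619 and 5303. The glutamate median was 0.00 with the low-Th libraries left out and -0.87 without Setd7 defeat replicate 2. All 7 serotonin neuron markers tested were higher (median 1.19), but only Gata3 did not overlap. Gata3 is also in the GABA list, En1 in the dopamine list and Slc17a8 in the glutamate list. The serotonin synthesis enzyme Tph2 read 4864, 343 and 3598 against 7019 and 3022, so 1 GFP control library was low. The serotonin median was 0.18 without GFP control replicate 2.

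**Figure D4:**
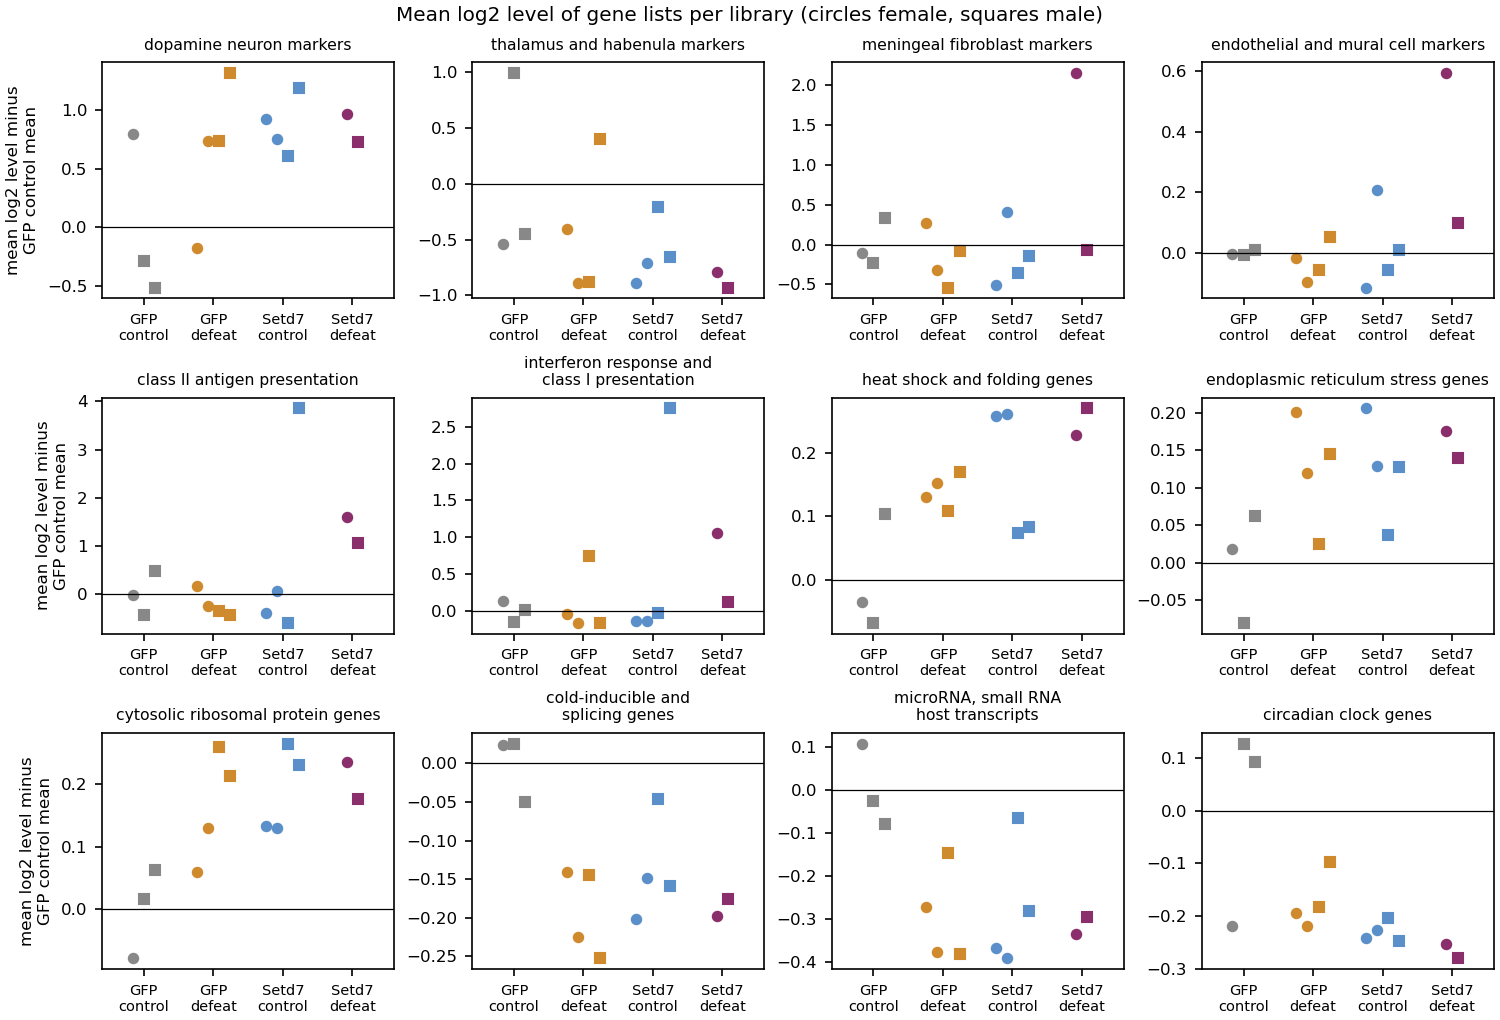
Mean log2 level of 12 gene lists in each of the 13 libraries, as a difference from the GFP control mean, with circles for female and squares for male libraries. Setd7 defeat replicate 1 stands alone for meningeal fibroblast markers, Setd7 control replicate 4 for class II antigen presentation, and GFP control replicates 2 and 3 are low for dopamine neuron markers.

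Oligodendrocyte genes, which make and wrap myelin, were mostly higher. Of 20 markers 19 were higher (median 0.24), 9 of them without overlap, and 0 were lower without overlap. Gjb1, a connexin of myelin, read 2621, 1745 and 2039 normalized counts in GFP control and 3043 and 3018 in Setd7 defeat (0.50 ± 0.17). Trf, the iron carrier transferrin, read 22050, 16873 and 19916 against 25661 and 25281 (0.36 ± 0.11). Mbp, myelin basic protein, read 166779, 133985 and 151536 against 195883 and 218735 (0.46 ± 0.19). The GFP control library lowest in all 3 was replicate 2. Of 14 markers of oligodendrocyte precursors 13 were higher (median 0.17), 4 without overlap, with Olig1 at 5474, 5620 and 5833 against 6600 and 6788 (0.25 ± 0.09). The oligodendrocyte median was 0.12 with the dopamine markers as a covariate and 0.10 without the libraries low in Th. With a single hit it was 0.15 (Setd7 alone) and 0.22 (defeat alone). Astrocyte markers stood near 0 (median 0.11, 13 of 20 higher, 4 without overlap), with S100b, a calcium-binding protein, at 7840, 6521 and 6686 against 8584 and 8821.

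All 24 markers of endothelial and mural cells, the cells of vessel walls, were higher, with a median of 0.29, and 10 did not overlap. Unadjusted p was under 0.05 for 9. Flt1, a receptor for vascular growth factor, read 4971, 4715 and 4570 normalized counts against 5503 and 5847 (0.25 ± 0.08), and its sister receptor Kdr read 694, 609 and 609 against 885 and 715 (0.29 ± 0.10). Ly6c1, a surface protein of brain endothelium, read 977, 1072 and 921 against 1250 and 1219 (0.33 ± 0.10). These were modest and present in both Setd7 defeat libraries. Anpep, an aminopeptidase of pericytes, read 74.3, 85.0 and 89.4 against 299 and 162 (1.37 ± 0.36). Pooled over the list, the level stood at 32371, 32035 and 32524 in GFP control and 44757 and 35620 in Setd7 defeat. Without Setd7 defeat replicate 1 the median was 0.15, with 16 of 24 higher.

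Genes of meningeal fibroblasts, the matrix-making cells of the brain's covering, were higher in Setd7 defeat replicate 1 and not in replicate 2. The 22 markers summed to 16486, 15429 and 22159 normalized counts in GFP control, 73823 in replicate 1 and 18619 in replicate 2. All 22 had a fitted difference above 0 (median 0.84), yet only 1, Dcn, did not overlap. Fn1, the matrix protein fibronectin, read 2838, 2921 and 2431 against 8241 and 2876. Ptgds, which makes prostaglandin D2, read 5381, 5175 and 10072 against 37314 and 7536. Slc13a4, a sulfate transporter of the leptomeninges, read 54.8, 47.1 and 163 against 1512 and 106. Without replicate 1 the median was 0.01, with 11 of 22 higher, and without replicate 2 it was 1.85. Collagen and matrix genes followed the same library: 20 of 29 were higher (median 0.14), and the median was -0.33 without replicate 1 and 0.42 without replicate 2. Within that list Col11a1 was lower in both libraries, at 928, 814 and 755 against 425 and 415 (-0.95 ± 0.30), as was the protease inhibitor Timp1, at 28.7, 27.1 and 24.8 against 11.03 and 8.21. The genes Prg4, Thbd, Osr1 and Omd are high in the same library as these markers, and the part of the markers in those results was not tested. Markers of choroid plexus and ependyma did not separate the groups (15 tested, median 0.09, 0 without overlap), with Ttr at 11.7, 92.8 and 63.5 against 463 and 71.5. Of 4 pituitary markers tested 2 were higher (median 0.24), and the hormone gene Prl read 112, 0 and 0 against 328 and 2.35.

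Genes that present antigen on class II molecules, which microglia and other myeloid cells raise when activated, were higher in both Setd7 defeat libraries. Of 8 genes 7 were higher (median 1.45), 5 of them without overlap, against 11.3% of all genes. Cd74, the class II chaperone, read 96.5, 49.97 and 208 normalized counts in GFP control and 902 and 623 in Setd7 defeat (3.03 ± 1.5, adjusted p = 0.616 by limma). H2-Aa read 35.2, 22.8 and 95.9 against 288 and 144, and H2-Eb1 read 43.0, 40.7 and 79.7 against 284 and 161. The SE was large because Setd7 control replicate 4 read 8725 for Cd74, and without that library unadjusted p was under 0.05 for 6 of the 8 genes (median 1.34). The other 7 libraries with a single hit read 71.0 to 164 for Cd74, within the range of GFP control.

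The fitted difference of the interferon response and class I list depended on Setd7 defeat replicate 1. Of 30 genes 29 were higher (median 0.65), 14 without overlap, and 0 had an unadjusted p under 0.05. B2m, the light chain of class I, read 2967, 1918 and 2182 normalized counts against 4331 and 4059 (0.89 ± 0.64). H2-K1, a class I heavy chain, read 546, 488 and 682 against 1397 and 950 (1.09 ± 0.72). Iigp1, an interferon-induced GTPase, read 89.98, 78.5 and 74.3 against 312 and 171 (1.62 ± 1.26). Without replicate 1 the list median was -0.10, with 13 of 30 higher, and without replicate 2 it was 1.58. The fitted direction over the list thus depended on the library kept. Yet the 14 genes without overlap, B2m and H2-K1 among them, lay above all GFP control libraries in both Setd7 defeat libraries. The fit has a sex term, and the male Setd7 control replicate 4 had a list level of 9.94 beside 7.06 to 7.18 in its group. Without Setd7 control replicate 4 the list median was 0.58, with 29 of 30 higher. In that limma fit 9 of the 30 genes had an unadjusted p under 0.05, all higher. The part of that library in the medians without a Setd7 defeat library was not tested. Microglia markers were higher for 19 of 20 (median 0.37), 4 without overlap, with Tmem119 at 600, 571 and 604 against 964 and 650. The microglia median was 0.10 without replicate 1 and 0.00 without the libraries low in Th. Of 9 blood and immune cell markers tested 6 were higher (median 0.42) and 4 did not overlap, among them the myeloid integrin Itgax at 27.4, 3.57 and 5.39 against 43.1 and 41.0. Hba-a1, Hba-a2, Hbb-bs, Hbb-bt and Ly6g were listed at 0 in all 5 libraries.

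Heat shock and folding genes, the chaperones that refold proteins, were higher in both Setd7 defeat libraries. Of 27 genes 23 were higher (median 0.17), 13 of them without overlap against 11.3% of all genes, and unadjusted p was under 0.05 for 11. Hspa1a, the inducible 70-kilodalton class chaperone, read 389, 467 and 667 normalized counts in GFP control and 962 and 1055 in Setd7 defeat. Its log2 difference was 1.06 ± 0.26 (adjusted p = 0.515 by limma, 0.0492 by DESeq2), and its near-identical neighbour Hspa1b read 351, 392 and 576 against 957 and 1032. The counts of this pair may be split between them by the counting. Hspb1, a small heat shock protein, read 111, 114 and 164 against 242 and 204 (0.78 ± 0.24). Hsp90ab1, the constitutive cytosolic chaperone, read 21634, 23609 and 23720 against 27373 and 27599 (0.26 ± 0.07), and its co-chaperone Ahsa1 read 1824, 1870 and 2179 against 2553 and 2377. Hsf1, the factor that drives this class of genes, stood lower at 1162, 1189 and 1266 against 1104 and 1055 (-0.17 ± 0.10). The median was 0.25 without Setd7 defeat replicate 1 and 0.12 without replicate 2. With a single hit it was 0.11 (Setd7 alone) and 0.06 (defeat alone). Summed over the list, levels were 134364, 131569 and 135444 against 149822 and 159388.

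Genes of the endoplasmic reticulum stress response stood higher by less but as often. Of 25 genes 22 were higher (median 0.14), 12 without overlap, and 6 had an unadjusted p under 0.05. Pdia4, a disulfide isomerase, read 1981, 1461 and 1826 normalized counts against 2382 and 2405 (0.43 ± 0.11). Hspa5, the lumenal chaperone BiP, read 9304, 8171 and 9805 against 11569 and 11257 (0.31 ± 0.12). Manf, a secreted factor of this response that protects dopamine neurons in rodents, read 1202, 1161 and 1398 against 1590 and 1496 (0.30 ± 0.11). Sesn2, a target of the stress kinases, was the 1 member lower without overlap, at 467, 515 and 515 against 437 and 461. Set against the same GFP control libraries, the list median was 0.13 with Setd7 alone and 0.13 with defeat alone.

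Promoter sequence of these lists is shown because their members stood higher together and because the response works through short promoter elements. The endoplasmic reticulum stress element, searched as CCAAT, any 9 bases and CCACG on both strands of the 300 bases from 250 before to 50 after a start, was in 7 of 22 matched list promoters and in 0.119% of 32851 promoters. The 7 genes were Calr, Canx, Creld2, Dnajc3, Hsp90b1, Hspa5 and Pdia6. The heat shock element, searched as TTC, GAA and TTC with any 2 bases between neighbours, was in 4 of 21 matched promoters of the heat shock list (Chordc1, Hspd1, Hspe1 and Hsph1) and in 0.603% of all. A match is a description of these letters and says nothing of binding. The lists were written to name genes of these responses, so their share of matches is no result of this comparison. The 250 bases before the Hspa5 start (RefSeq, build GRCm38.p6, + strand, chr2:34771840-34772089) hold the element in capitals 46 bases before the start, and stretches around the element of 3 more members follow with the same marking.
Hspa5: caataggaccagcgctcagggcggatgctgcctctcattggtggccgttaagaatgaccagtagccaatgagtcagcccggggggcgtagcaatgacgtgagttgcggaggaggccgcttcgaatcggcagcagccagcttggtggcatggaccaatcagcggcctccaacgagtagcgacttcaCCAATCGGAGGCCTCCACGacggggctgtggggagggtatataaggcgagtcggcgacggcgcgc
Pdia6: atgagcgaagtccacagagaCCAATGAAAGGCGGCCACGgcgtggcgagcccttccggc
Canx: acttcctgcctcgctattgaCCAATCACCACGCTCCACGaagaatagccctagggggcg
Calr: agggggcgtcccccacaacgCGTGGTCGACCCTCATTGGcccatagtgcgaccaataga
Pdia6 lies on chr12:17266471-17266529 (+ strand), Canx on chr11:50325780-50325838 (- strand) and Calr on chr8:84847055-84847113 (- strand), where the element reads in reverse complement. Pdia6 read 1877, 1576 and 2022 normalized counts in GFP control and 2266 and 2058 in Setd7 defeat, Canx read 18265, 17771 and 15921 against 18873 and 19571, and Calr read 8351, 7178 and 7723 against 8749 and 9543. All 3, like Hspa5, had no overlap. Values of the other carriers Creld2, Dnajc3 and Hsp90b1 are not given here, and over the list 12 of 25 genes were higher without overlap. Hspd1 and Hspe1, the mitochondrial chaperone pair that share a promoter between them, carry the heat shock element in the same stretch on opposite strands.
Hspd1: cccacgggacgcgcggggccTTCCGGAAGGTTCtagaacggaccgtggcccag
Hspe1: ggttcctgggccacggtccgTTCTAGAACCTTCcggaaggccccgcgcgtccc
Hspe1 read 668, 590 and 490 against 679 and 754 (0.30 ± 0.14) and Hspd1 read 1990, 2310 and 2043 against 2296 and 2553 (0.20 ± 0.09), the latter with overlap.

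Cold-inducible, splicing kinase and splicing factor genes were lower as a group. Of 45 genes 38 were lower (median -0.14), and 25 of 45 were lower without overlap, against 11.1% of all genes. The list was written with earlier results of these data known, so this share describes its members and is no independent test. Unadjusted p was under 0.05 for 15 lower and 1 higher. Besides Ttc14 and Rbm3, Pnisr, a serine and arginine rich splicing protein, read 2872, 2492 and 2783 normalized counts in GFP control and 1725 and 1975 in Setd7 defeat (-0.55 ± 0.15). Tia1, an RNA-binding protein of stress granules, read 1869, 1735 and 1591 against 1335 and 1255 (-0.43 ± 0.12). The splicing kinase Clk1 read 2330, 2577 and 2066 against 1751 and 1633 (-0.45 ± 0.16), and the splicing factor Srsf5 read 2109, 1995 and 2051 against 1576 and 1688 (-0.33 ± 0.11). In each of these genes both Setd7 defeat libraries lay below all GFP control libraries. Hnrnpc, a nuclear RNA-binding protein, was among the exceptions at 3850, 3590 and 3481 against 4170 and 3981 (0.15 ± 0.06). The median ranged from -0.11 to -0.18 when any 1 of the 5 libraries was left out, and it was -0.19 without the libraries low in Th. Set against the same GFP control libraries, it was -0.10 with Setd7 alone and -0.10 with defeat alone.

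Host transcripts of microRNAs and other small RNAs were lower too: 20 of 24 tested, median -0.30, with 12 lower and 0 higher without overlap. Mir124a-1hg read 2313, 2781 and 2314 normalized counts against 1145 and 1313 (-0.96 ± 0.22, adjusted p = 0.515 by limma, 0.0143 by DESeq2). Snhg11 read 41461, 40437 and 34943 against 22581 and 19620 (-0.86 ± 0.26), and Meg3, an imprinted non-coding RNA, read 87245, 72622 and 68698 against 40416 and 46948 (-0.77 ± 0.32). Mirg, a microRNA host at the far end of the Meg3 cluster, read 443, 447 and 408 against 234 and 209 (-0.93 ± 0.24). Malat1, an abundant nuclear RNA, read 276799, 226059 and 234545 against 156181 and 180552 (-0.54 ± 0.22). These transcripts stood about alike in both Setd7 defeat libraries. Set against the same GFP control libraries, the list median was -0.25 with Setd7 alone and -0.17 with defeat alone.

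The imprinted cluster on chromosome 12 between Meg3 and Mirg also holds many microRNA genes, and their rows were examined after the host values were seen. Of 29 such rows that were tested 27 were lower, 18 of them without overlap, with a median of -0.86. They lie in 1 transcribed region and are not independent, and counts were low. Of 64 microRNA rows elsewhere 45 were lower, 17 without overlap, with a median of -0.39. Mir382 read 37.8, 22.8 and 31.2 normalized counts in GFP control and 6.02 and 0 in Setd7 defeat, and Mir679 read 19.6, 19.3 and 21.5 against 5.01 and 5.86. Mir668 read 14.3, 15.0 and 9.69 against 4.01 and 1.17, and Mir539 read 15.6, 7.14 and 10.8 against 1.0 and 2.35. These reads come from a total RNA library over the hairpin genes, not from mature microRNAs. The mature sequences (RefSeq, build GRCm38.p6, + strand of chromosome 12) of the 4 rows, and of Mir3070b at 10.4, 15.0 and 20.47 against 6.02 and 4.69, are shown to name the products these rows encode, with the seed (bases 2 to 8) in capitals. No 2 of the seeds are the same.
mmu-miR-382-5p: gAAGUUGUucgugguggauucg
mmu-miR-679-5p: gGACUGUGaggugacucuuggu
mmu-miR-668-3p: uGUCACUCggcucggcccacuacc
mmu-miR-539-5p: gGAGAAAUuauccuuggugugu
mmu-miR-3070-5p: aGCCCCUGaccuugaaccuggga

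Clock genes, the transcription loop of daily rhythms, were lower for 20 of 23 (median -0.20), 6 without overlap. Nr1d1, the repressor REV-ERB alpha, read 1704, 2143 and 1921 normalized counts in GFP control and 1288 and 1590 in Setd7 defeat (-0.41 ± 0.13). Bhlhe40, another repressor of the loop, read 2279, 3069 and 3171 against 2071 and 2252 (-0.36 ± 0.10). In both genes GFP control replicate 1 was the lowest of its group, and the clock median was -0.05 with the low-Th libraries left out and -0.32 with GFP control replicate 1 left out. With a single hit the clock median was -0.19 (Setd7 alone) and -0.11 (defeat alone), set against the same GFP control libraries. Times of day at collection are not given in the sources used here.

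Short housekeeping genes stood on the higher side. Of 68 cytosolic ribosomal protein genes 61 were higher (median 0.23), 27 without overlap and 2 lower without overlap, and 22 had an unadjusted p under 0.05. Rps6, a protein of the small subunit, read 1425, 1305 and 1231 normalized counts against 1771 and 1877 (0.47 ± 0.11), and Rplp1, a stalk protein, read 4459, 3963 and 3321 against 5671 and 5866 (0.58 ± 0.18). Single genes of this family share reads with processed copies and are uncertain. The sum over the 68 was 52024, 53240 and 53107 against 63608 and 60359. Set against the same GFP control libraries, the ribosomal median was 0.21 with Setd7 alone and 0.18 with defeat alone. Of 59 nuclear genes of oxidative phosphorylation, the respiratory chain of mitochondria, 52 were higher (median 0.13), 15 without overlap and 0 lower without overlap. Uqcrh, a subunit of complex III, read 746, 760 and 825 against 1159 and 1060 (0.50 ± 0.12). The respiratory median was 0.34 with the low-Th libraries left out and 0.01 with GFP control replicate 1 left out. With a single hit it was 0.15 (Setd7 alone) and 0.07 (defeat alone).

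Medians over the whole table differed between classes of transcript length and gene type. Protein coding genes were divided by transcript length into 5 classes of nearly equal size. The class with the shortest transcripts (102 to 1989 bases) had a median of 0.08, with 17.0% higher and 8.14% lower without overlap. The class with the longest transcripts (5260 bases or more) had a median of -0.02, with 7.06% higher and 12.4% lower. Genes of other classes, mostly non-coding, had a median of -0.21 over 1678 genes, with 5.48% higher and 21.4% lower without overlap. Other classes held 2.93, 2.77 and 2.67% of the counts (Rn45s left out) in GFP control and 2.41 and 2.42% in Setd7 defeat. The mean log2 level of the shortest minus the longest class was -3.31, -3.36 and -3.24 against -3.13 and -3.32, so Setd7 defeat replicate 2 lay within the range of GFP control and replicate 1 lay above it. The lists above differ in length and class, with short ribosomal and respiratory genes on one side and non-coding hosts on the other, and the part of length and class in their results was not tested. Single-hit medians from the shared controls were 0.08 (Setd7 alone) and 0.05 (defeat alone) in the shortest class, and -0.14 and -0.15 in other classes.

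**Figure D5:**
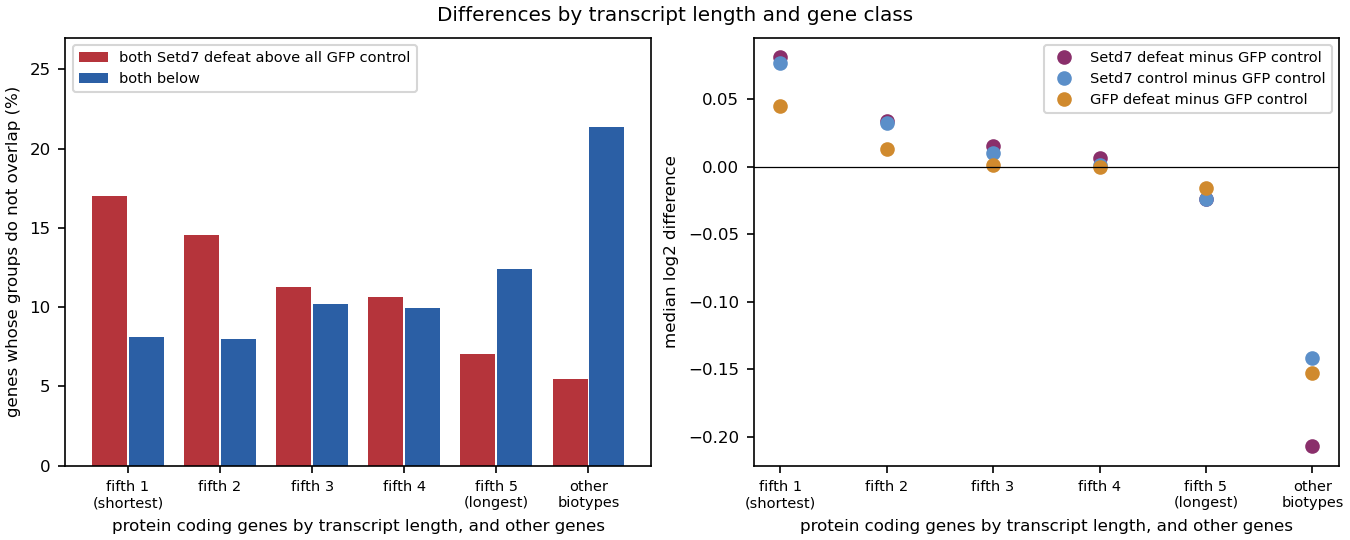
Left, the share (%) of genes with both Setd7 defeat libraries above or below all GFP control libraries, for 5 classes of protein coding transcript length and for other biotypes. Right, median log2 differences from GFP control in the same classes for both hits and each single hit: with both hits they run from 0.08 in the shortest class to -0.02 in the longest and -0.21 in other biotypes.

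Among lists of receptors, channels and synaptic genes, the medians ranged from -0.13 to 0.42. Of 40 glutamate and GABA receptor genes 28 were lower (median -0.13), 2 higher and 5 lower without overlap, and the median was 0.02 without Setd7 defeat replicate 1. Gria2, an AMPA receptor subunit, read 11770, 10859 and 10989 normalized counts in GFP control and 8646 and 9891 in Setd7 defeat (-0.28 ± 0.11), while the kainate receptor subunit Grik3 read 5593, 4043 and 3379 against 5677 and 6183 (0.49 ± 0.18). The Grik3 difference was 0.01 with the low-Th libraries left out and 0.15 with the dopamine markers as a covariate. Of 12 nicotinic receptor subunits 9 were higher (median 0.42), 3 higher and 2 lower without overlap. That median was -0.05, with 5 of 12 higher, once the low-Th libraries were left out, and -0.04 with the dopamine covariate. It was 0.71, 0.09 and 0.37 without GFP control replicate 1, 2 and 3, and 0.20 without Setd7 defeat replicate 1. Chrna6 and Chrnb3 are in both this list and the dopamine markers, so the covariate was partly built from this list. Chrna7 read 1166, 800 and 1076 against 1295 and 1404 (0.44 ± 0.16), and its difference was 0.14 with the low-Th libraries left out. Potassium channel genes (38, median -0.06) and sodium, calcium and HCN channel genes (34, median -0.05) were divided, with Cacna1g, a low-voltage calcium channel, at 4299, 7414 and 4859 against 3676 and 3471 (-0.56 ± 0.18, -0.33 with the low-Th libraries left out). Synaptic vesicle genes (37, median -0.03) were divided too, and the vesicle priming gene Unc13a read 5962, 6695 and 6916 against 5251 and 5797 (-0.22 ± 0.08). Of 18 dopamine and serotonin receptors 11 were higher (median 0.04), with Drd5 at 110, 121 and 122 against 80.2 and 83.2 (-0.51 ± 0.22).

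Stress-related lists had medians from -0.17 to 0.08. Of 28 immediate early genes 14 were higher and 14 lower (median 0.00), with 2 higher and 3 lower without overlap. Npas4, induced by neuronal activity, read 99.1, 117 and 93.7 normalized counts against 45.1 and 68.0 (-0.92 ± 0.51), and Sik1, a kinase induced by cyclic AMP, read 876, 1015 and 905 against 1167 and 1039 (0.25 ± 0.11). Of 23 glucocorticoid response genes 15 were higher (median 0.08), 5 higher and 1 lower without overlap. The glucocorticoid median was 0.30, with 20 of 23 higher, when the low-Th libraries were left out, and -0.01, with 10 of 23 higher, when GFP control replicate 1 was. Pdk4, a metabolic kinase induced by glucocorticoids, read 604, 514 and 419 against 668 and 702 (0.41 ± 0.15), and Nfkbia, an inhibitor of NF-kappa B, read 553, 445 and 626 against 709 and 707 (0.41 ± 0.18). Of 18 genes of the CRF and stress peptide system 10 were lower (median -0.17), 2 without overlap, and with the low-Th libraries left out 15 were lower (median -0.37). Of 8 opioid receptors and peptides 5 were higher (median 0.04), with the precursor gene Pnoc at 571, 493 and 453 against 680 and 589 (0.30 ± 0.12). Cholesterol synthesis genes (24, median 0.13), perineuronal net genes (16, median -0.05) and p53 targets (19, median 0.04) had 2, 3 and 4 members higher and 0, 2 and 1 lower without overlap. Ncan, the net proteoglycan neurocan, read 6102, 6245 and 6445 against 7395 and 7189 (0.22 ± 0.08).

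Chromatin genes related to Setd7 stood near the background beside Setd7 itself. Of 29 genes of the machinery that adds, removes or supports histone H3 lysine 4 methylation 17 were lower and 12 higher (median -0.03), with 3 higher, Setd7 among them, and 3 lower without overlap. Kmt2b, a histone H3 lysine 4 methyltransferase, read 3181, 3894 and 3300 normalized counts in GFP control and 2639 and 3000 in Setd7 defeat (-0.27 ± 0.10). Dpy30, a shared subunit of these enzymes, read 430, 395 and 415 against 481 and 528 (0.28 ± 0.17). Of 18 histone deacetylases 8 were higher (median -0.01), with 2 higher and 2 lower without overlap. Hdac11 read 9790, 8978 and 8603 against 10855 and 10392 (0.21 ± 0.07). For none of Kmt2b, Dpy30 and Hdac11 did limma give an adjusted p under 0.522.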

How the data were processed

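Tissue was VTA punches. RNA was extracted by RNeasy Micro kit, and libraries came from a TruSeq RiboZero kit, which removes ribosomal RNA, per the labels' protocols. The submitters' processing notes name Bowtie2, featureCounts, DESeq2 and GRCm39, without versions, strand setting or order. The authors deposited 1 table of signal for 26264 genes in 13 libraries, which is read counts divided by DESeq2 size factors, with no coordinates. Values in a library were whole multiples of 1 step, and all 341432 values (100%) came out within 0.01 of a whole read. Depth was 26.5 to 50.8 Mreads. Genes under 10 normalized counts in all but 1 library were dropped (8509, of which 3670 were 0 everywhere).

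Tests used a trended limma fit (limma 3.58.1, R 4.3.3) of log2(normalized count + 1), with 4 group means and sex over all 13 libraries (prior degrees of freedom 4.64), two-sided, with Benjamini-Hochberg adjustment over 17755 genes and a threshold of 0.05. DESeq2 1.42.0, which gave no adjusted p for 1033 genes, and edgeR 4.0.16 ran on the recovered reads with the same design. The limma test was checked on simulated counts that had the same spread setting for every gene and no differences in tissue content between libraries. That check does not measure the power of the test in these data.

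Genes were named by rule: Setd7, the 12 per direction with the smallest unadjusted p whose groups did not overlap, up to 10 per direction called by DESeq2 (both with a mean of 30 normalized counts, without predicted names) and up to 4 members of each of 39 lists with the smallest p. Further genes in the text were picked after their values were seen, as illustration. Lists were written from general knowledge, and the comparison, its members and the lists were chosen with earlier results of these data known. Transcript length and class came from GENCODE mouse release 21 by name (17129 of 17755 matched). Sequences came from RefSeq (GRCm38.p6), matched by name because the table is on GRCm39. Intervals for a count of 0 cover counting error only.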

Additional observations from a re-analysis of the deposited data

Results flagged for a closer look

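Within the groups of 4 libraries, values were set apart when the gap of 1 library to the nearest of the others exceeded Dixon's critical value for 4 values, as a share of the group's range. Of 134 groups checked 9 had such a library, and chance gives about 1 in 20, or 6.7. All 9 lie in the single-hit groups, which enter the fit of the comparison through the shared spread.

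The class II antigen presentation list had a mean log2 level of 10.51 in Setd7 control replicate 4, with the other 3 libraries at 6.05 to 6.71, and the interferon response and class I list had 9.94 in the same library, with the others at 7.06 to 7.18. In GFP defeat replicate 3 the interferon list had 7.95, with the others at 7.04 to 7.16. Setd7 control replicate 4 also stood low for the glutamate neuron list, at 7.90 against 8.28 to 8.31, and for Bsg, at 10575 normalized counts against 11742 to 11873. Setd7 control replicate 3 stood high for Pisd-ps3 (5198 against 4187 to 4300 normalized counts) and for Wnt9b (29.1 against 0 to 2.97), and low for the oligodendrocyte precursor list (10.90 against 11.10 to 11.14). Setd7 control replicate 1 stood low for the collagen and matrix list, at 8.17 against 8.48 to 8.52.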

How the results depend on the processing

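No paired analysis was possible because the labels give no replicate numbers that tie libraries across groups, and the numbers used here only name libraries. The count of 0 genes by limma was 1 when only the 5 libraries were fitted, 26 with DESeq2, and 0 to 10 when single libraries were left out, with 10 without Setd7 defeat replicate 2 and 1 without Setd7 control replicate 4. Leaving out libraries in DESeq2, an alternative chosen after seeing the data, gave 5 to 193 genes: 193, 9 and 34 without GFP control replicate 1, 2 and 3, of which 19, 8 and 18 were among the 26, and 5 and 187 without Setd7 defeat replicate 1 and 2, of which 2 and 12 were. The cause was not tested. Setd7 kept its direction under all 26 alternatives and passed under 3, at 2.96 on the 5 libraries alone, 2.92 by DESeq2 and 2.92 without Setd7 control replicate 4, and its range with single libraries left out was 2.32 to 3.35. Of 4488 values of the 173 other named genes under the alternatives 4448 kept direction and side of the threshold, 27 came to pass and 13 reversed. As limma called 0 genes, the side of the threshold could only change by a gene coming to pass. Sizes could move far within a kept direction, as for Fn1 with a range of 0.0883 to 1.58. Drd2 (-0.0371) and Kcnd3 (-0.0141) reversed with the dopamine neuron markers as a covariate. Drd2 is itself 1 of these markers, so a value near 0 was built into that alternative. Slc17a7 (0.24), En1 (-0.11), Avpr1a (-0.39), Npy (0.0223), Oprk1 (-0.11), Oprd1 (0.0734), Chrna6 (-0.0765), Grm4 (0.11) and Hlf (0.00475) reversed without the libraries low in Th, Gjb6 without Setd7 defeat replicate 1 and Dynlrb2 without Setd7 defeat replicate 2, with leave-one-out ranges of -0.0281 to 0.461 and -3.89 to 0.862. The medians of 22 of 39 lists kept their sign under all 26 alternatives, and 24 to 28 lists had a median above 0. With 2 libraries in Setd7 defeat, the spread of that group is borrowed from the other groups.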
